A study of Mus musculus with 12 samples.

Results

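Niche macrophages from normal mouse bone marrow were compared with general macrophages from the same tissue across all genes of the count table. The members are 6 of the 12 libraries of the series: 3 of niche macrophages, sorted with antibodies to VCAM1, CD163 and CCR3, and 3 of general macrophages, sorted with antibodies to CD11b and F4/80. The antibodies chose the cells and no transcript value was used, so the genes of the 5 antigens are given as a description of the sort. Both sorts drew on live single cells flushed out of femur and tibia after red cell lysis, taken from healthy control mice that had no tumour cells injected. The 6 other libraries hold the same sorts from marrow with bone metastases, raised by injecting E0771, a mouse breast cancer line, into the caudal artery of female Albino B6 mice at 8 weeks of age. The strain, sex and age of the healthy mice are not stated apart from that. Per the design text the 3 replicates of a group came from different mice, and neither group carries an engineered allele or a drug. General macrophages is the name of either sort in the sample titles, but the design text keeps niche-specific for the VCAM1, CD163 and CCR3 sort, and the antigens decide the group here.

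Erythroblastic islands are the units of red cell production in marrow, in which a central macrophage holds maturing erythroblasts on its surface. That macrophage supplies iron and growth factors, and it engulfs and digests the nuclei that erythroblasts expel. CD163 takes up complexes of haptoglobin and haemoglobin, VCAM1 binds integrins on erythroblasts, and CCR3 is a chemokine receptor best known from eosinophils. CD11b and F4/80 are carried by a wider range of myeloid cells, monocytes included.

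Niche macrophages held more RNA of some haem and iron handling genes (Hmox1, Slc40a1, Trf) and some receptors for dying cells and sugars (Axl, Mertk, Mrc1). They also held more RNA of the MHC class II chains H2-Aa and H2-Ab1 and of the mitochondrial genome. General macrophages held more RNA of inflammatory monocyte and neutrophil genes (Lyz2, Ccr2, Ly6c2, Camp) and of matrix and clotting genes (Fn1, F13a1, Thbs1). Transcripts of erythroid and B cells were also higher in niche libraries, and their part in any other difference was not tested. In edgeR's quasi-likelihood test, 318 of 12882 genes passed an adjusted p-value of 0.05, which is 2.47% of those tested and is what "called" means below. Of these, 193 were higher in niche macrophages (1.5% of genes tested) and 125 were lower (0.97%). DESeq2 called 887 higher and 930 lower, and limma-voom with sample quality weights 150 and 36, so the share of calls that were higher moved from 60.7% to 48.8% and 80.6%. Without general replicate 1, 2 or 3 the numbers were 113, 120 and 116 higher and 64, 60 and 68 lower, and without niche library B 206 were lower.

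The share of genes called was larger at higher expression. Expression is given as CPM, counts relative to the library total after scaling with the trimmed mean of M values (TMM), and log2 fold changes are niche minus general. Among the 891 genes whose mean reached 200 CPM over the 6 libraries, 13.6% were called, against 4.27% of the 2717 genes between 50 and 200 CPM and 1.59% of the 4715 between 10 and 50 CPM. The median SD between replicates on the log2 scale was 3.36 in niche and 1.09 in general libraries between 10 and 50 CPM, and 0.34 and 0.25 at 200 CPM or more. Below 50 CPM many genes dropped to 3 counts or fewer in 1 library while standing at 10 CPM or more in another of the same group. This affected 2147 of the 12882 tested genes in general and 3078 in niche libraries, but 3 and 7 of the 3608 genes whose mean was 50 CPM or more. Those 3608 genes are called well measured, and 237 of them (6.57%) were called, 150 higher (4.16%) and 87 lower (2.41%). The lower number was 48, 42 and 51 without general replicate 1, 2 or 3, and the higher number 96 and 93 without general replicate 1 or 3. The libraries of the groups did not overlap for 316 of the 318 called genes. The 20 well measured genes of smallest p named below, 10 in each direction, were taken from genes without overlap, so for them the absence of overlap is part of the choice. Over all tested genes, the 3 niche libraries all lay above the 3 general libraries for 10% and all below them for 8.78%.

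**Figure D1:**
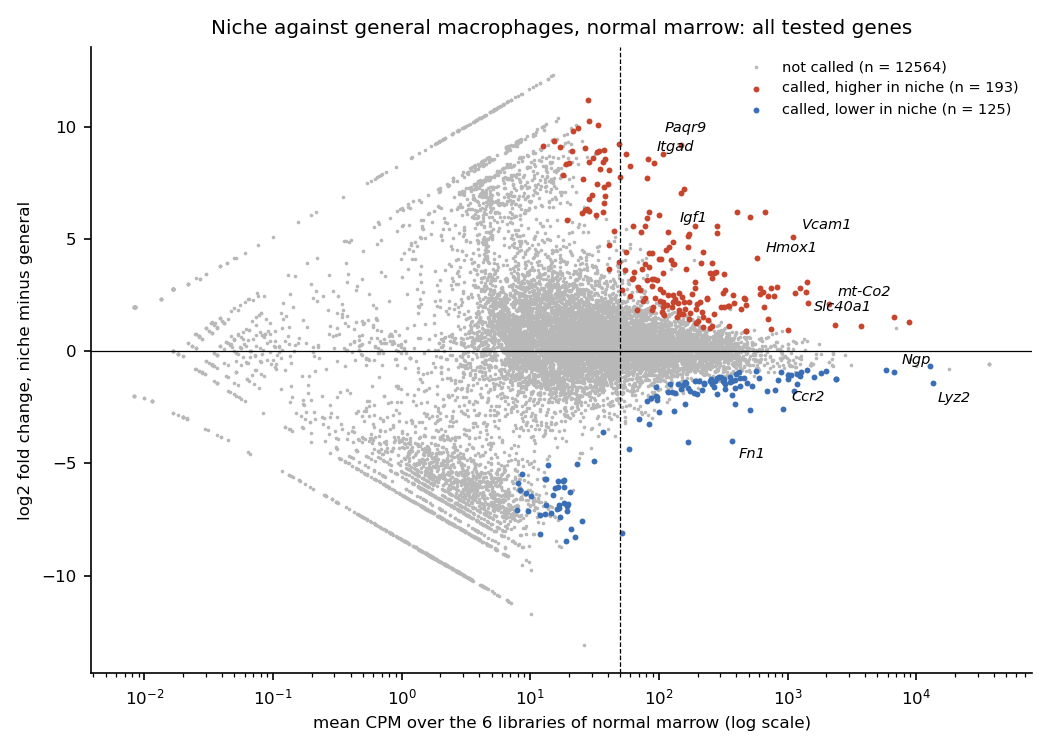
Mean CPM over the 6 libraries of normal marrow (log scale) against the log2 fold change of niche minus general macrophages, with 1 point for each of 12882 tested genes and called genes in colour. The dashed line marks 50 CPM, right of which lie 237 of the 318 called genes, while the fan of grey points to the left holds genes at or near 0 counts in some libraries.

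Library totals lay between 13687900 and 20777200 counts, and 3 counts, the most that is taken here as background, were worth 0.149 to 0.243 CPM. Niche libraries had 8486 ± 701 genes with at least 10 counts and general libraries 9938 ± 591 (SD, n = 3 each). Genes of U3 small nucleolar RNA, several of them copies whose counts cannot be separated, took 18.9% ± 0.486 of counts in general and 12.5% ± 1.70 in niche libraries (SD, n = 3 each). The groups did not overlap in either measure, for which the exact two-sided permutation p was 0.1, the smallest that 3 libraries against 3 allow, and 0.12 after Benjamini-Hochberg adjustment over 18 library measures. Between libraries of a group, chi-square values per degree of freedom were 159 to 172 within general and 404 to 411 within niche macrophages. Libraries of different mice differ by more than counting noise in any case, so these values only describe the spread. The labels give no sequencing batch or date.

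The transcripts of the sorting antigens describe the sort. Vcam1 stood at 86.7, 47.6 and 55.9 CPM in general replicates 1 to 3 and at 2248, 2088 and 2146 CPM in niche libraries A to C. Ccr3 was at 12.6, 8.25 and 13.5 CPM in general and 675, 601 and 378 CPM in niche libraries, and Cd163 at 28.0, 1.96 and 2.15 CPM against 941, 735 and 709.9 CPM. Adgre1, the gene of F4/80, was at 145, 120.4 and 103 CPM in the sort that used F4/80 and at 589, 509 and 343 CPM in the sort that did not. Itgam, the gene of CD11b, was at 628, 789.5 and 852 CPM in general and 328, 370.4 and 547 CPM in niche libraries, and 68.7% of its exon bases are shared with an overlapping gene model. Every niche library was above every general one for Adgre1, as for the 3 genes of the niche antigens, and below every general one for Itgam.

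General macrophage genes were present in both sorts, so the label holds for both at the level of RNA. Csf1r, the receptor for the growth factor that macrophages depend on, was at 106, 71.4 and 113 CPM in general and 282, 87.5 and 159 CPM in niche libraries, and Mpeg1, a pore-forming protein of phagocytes, at 1535, 1415 and 1357 CPM and 1068, 1132 and 1188 CPM. Neither was called (edgeR adjusted p = 0.329 and 0.426). Of 23 tested genes of a macrophage core list, 6 were called higher and 1 lower. The higher ones included Ctsd, Ctsb, Mertk and Sirpa, and the lower one was Lyz2, the lysozyme of myeloid cells. Their median log2 fold change was 0.86, beside 0.19 over all tested genes, and it was 0.35 without niche library A. The number called higher was 3 without that library or general replicate 3. Sirpa kept its call only without niche library C when 1 library was left out. Some defining markers of other cells were at 3 counts or fewer in all 6 libraries, among them Pf4 and Gp9 of platelets, Lepr of stromal cells, Cdh5 and Kdr of endothelium and Siglech of plasmacytoid dendritic cells.

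Genes associated with erythroblastic island and tissue-resident macrophages were higher in niche macrophages. Of 24 tested members of that list, 15 were called higher, and all 24 had a positive log2 fold change, Maea and Itga4 being near 0 and negative under some alternatives, with a median of 4.29. With general replicate 1 left out 13 members were called higher, the lowest count among the 6 such fits. Igf1, a growth factor that acts on erythroid precursors, was at 16.4, 16.2 and 10.1 CPM in general and 427, 751 and 485 CPM in niche libraries, which is 5.28 ± 0.39 as a log2 fold change (SE; edgeR adjusted p = 2.23e-07). Niche library B was the highest, and the general libraries lay close together. In GRCm38, Igf1 lies on the plus strand at chr10:87858265-87937042 (GENCODE M21). Spic, a transcription factor needed for red pulp macrophages of the spleen, was at 0.549, 0.593 and 4.95 CPM and 510.0, 234 and 193 CPM (log2 fold change 7.24 ± 0.95, SE, edgeR adjusted p = 0.000153). Maf, another transcription factor of resident macrophages, was at 31.2, 12.2 and 16.1 CPM and 435, 394 and 444 CPM (log2 fold change 4.42 ± 0.41, SE, edgeR adjusted p = 3.31e-06). General replicate 3 carried most of the Spic RNA of its group, and the groups overlapped for neither gene. Of 31 tested macrophage transcription factors 4 were called higher, among them Maf, Spic and Irf8, and Bach1 lower, with a median of -0.21 that ran from -0.28 to -0.0027 when 1 library was left out. The number called higher was 2 without general replicate 3 or niche library A, and 3 were called lower without niche library B. Irf8 lost its call in 5 of 6 fits that left out a library, niche library B being the exception.

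Other island and resident genes repeated that order of the groups. Siglec1, the sialic acid receptor CD169 that marks marrow-resident macrophages, was at 18.3, 27.2 and 24.7 CPM in general and 355, 326 and 226 CPM in niche libraries, which is 3.69 as a log2 fold change (edgeR adjusted p = 0.00777, and 0.0574 without general replicate 1). Cd5l, a secreted protein of tissue macrophages, rose by 4.65 on the log2 scale (0.0528 as adjusted p without general replicate 1), and Paqr9, of the progestin and adipoQ receptor family, by 9.21 from 0.343, 0.534 and 0.599 CPM to 365, 282 and 244 CPM (edgeR adjusted p = 0.0127 and 3.31e-06). Timd4, a phosphatidylserine receptor of resident macrophages, was at 3 counts or fewer in each general library and at 14.4, 7.60 and 25.2 CPM in niche libraries, which did not pass (edgeR adjusted p = 0.0706). Maea and Itga4, which both take part in the binding of erythroblasts, had log2 fold changes of 0.11 and 0.11 and were not called (edgeR adjusted p = 0.985 and 0.898). The groups overlapped for Itga4, at 602, 559 and 677 CPM in general and 859, 563 and 566 CPM in niche libraries.

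**Figure D2:**
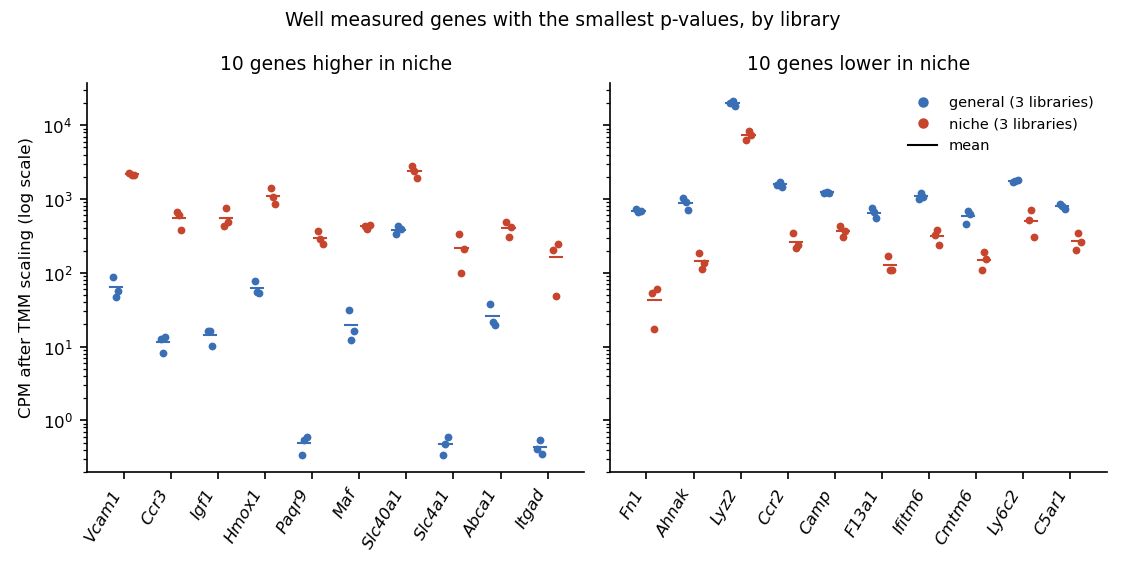
CPM after TMM scaling on a log axis in each of 3 general and 3 niche libraries, with the mean as a bar, for the 10 well measured genes of smallest p-value in each direction among called genes chosen to have no overlap between groups. The distance between groups varies from gene to gene, and Paqr9, Slc4a1 and Itgad lie under 1 CPM in all general libraries.

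Of 28 tested genes of iron and haem handling, 5 were called higher and 1 lower, with a median log2 fold change of 0.95. The median was 0.51 without niche library A, 0.58 without general replicate 2 and 0.22 in limma-voom, and 3 were called higher without general replicate 1 or 3. Hmox1, the enzyme that splits haem and frees its iron, was at 76.9, 54.7 and 53.1 CPM in general and 1388, 1056 and 859 CPM in niche libraries, which is 4.16 ± 0.33 as a log2 fold change (SE; edgeR adjusted p = 3.48e-07). Slc40a1, which encodes ferroportin, the exporter of iron, was at 332, 428 and 392 CPM and 2839, 2360.1 and 1927 CPM, which is 2.63 ± 0.25 as a log2 fold change (SE; edgeR adjusted p = 3.38e-06). Both are among the genes chosen without overlap. Slc48a1, which carries haem out of the phagolysosome, rose from 33.5, 55.1 and 44.0 CPM to 281, 193 and 186 CPM (edgeR adjusted p = 0.0154), and the transferrin receptor Tfrc from 36.5, 53.2 and 71.9 CPM to 135, 129 and 229 CPM (edgeR adjusted p = 0.0439). Trf, transferrin itself, rose by 3.27 on the log2 scale (edgeR adjusted p = 0.00195), with 63.5% of its exon bases shared with another gene model. Bach1, the repressor of Hmox1 that haem releases from DNA, fell from 555, 602 and 513 CPM to 222, 289 and 167 CPM (log2 fold change -1.30, edgeR adjusted p = 0.00863). The ferritin chains were not called, Ftl1 being at 161, 161 and 114 CPM and 402, 432 and 236 CPM and Fth1 at 230.3, 241 and 399 CPM and 542, 406 and 247 CPM (edgeR adjusted p = 0.101 and 0.574). Tfrc lost its call in 4 of 6 fits that left out a library, each general one and niche library C, and Slc48a1 lost it without general replicate 1 or 3.

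Some receptors that take up dying cells and glycoproteins (Axl, Mertk and Mrc1) separated the groups widely, though the lists as a whole moved less. The log2 fold change was positive for 13 of 21 tested genes of apoptotic cell clearance and 10 of 19 scavenger and pattern receptors. Of all tested genes 56.0% were positive. Axl, a receptor that recognises dying cells through a bridging protein, was at 4.74, 26.9 and 22 CPM in general and 1631, 1284 and 1036 CPM in niche libraries, which is 6.20 ± 0.76 as a log2 fold change (SE; edgeR adjusted p = 7.64e-05). Its relative Mertk was at 0.687, 0.771 and 5.20 CPM and 327, 232 and 328 CPM (log2 fold change 7.04 ± 0.96, SE, edgeR adjusted p = 0.000208), and the mannose receptor Mrc1 at 24.6, 10.8 and 13 CPM and 748, 1025 and 1262 CPM (log2 fold change 5.97 ± 0.68, SE, edgeR adjusted p = 3.52e-05). For all 3, every niche library stood far above every general one, although limma-voom did not call Axl (limma-voom adjusted p = 0.0845). Of 21 tested genes of apoptotic cell clearance, 4 were called higher (Axl, Mertk, Itgav and Abca1) and Thbs1 lower, with a median log2 fold change of 1.73. That median was 0.22 without niche library C and 0.25 with at least 10 counts in every library, where 11 of the genes were tested, and 3 genes were called lower without niche library A. Of 19 scavenger and pattern receptors, Mrc1 and Scarb2 were called higher and Clec7a, the beta-glucan receptor Dectin-1, lower, from 133, 211 and 179.5 CPM to 33.6, 40.6 and 5.47 CPM (edgeR adjusted p = 0.0219). The median of the scavenger list, 0.33, turned to -0.48 in limma-voom and to -0.36 under that stricter filter, and was 0.0087 without niche library C. Clec7a lost its call without general replicate 2 or 3.

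Genes that handle the engulfed material followed in part. Of 39 tested lysosomal genes, Ctsd, Ctsb, Scarb2 and Acp2 were called higher, and the median log2 fold change was 0.24, near the 0.19 of all genes (-0.06 without niche library A, 0.06 without general replicate 2 and 0.44 without general replicate 1), and Acp2 lost its call without general replicate 3. The protease cathepsin B, from Ctsb, was at 133, 161 and 236 CPM in general and 977, 1342 and 1022 CPM in niche libraries, and cathepsin D, from Ctsd, at 283, 223 and 284 CPM and 1028, 1219 and 894 CPM. Their log2 fold changes were 2.65 ± 0.29 and 1.99 ± 0.26 (SE; edgeR adjusted p = 2.42e-05 and 0.000136). Psap and Lamp2, which make the precursor of saposins and a lysosomal membrane protein, had log2 fold changes of -0.28 and -0.38 and were not called. Among 26 lipid handling genes, Lpl, Abca1 and Scd1 were called higher and 1 gene lower, with a median of 1.48. Leaving out any library but niche B removed the call of Scd1. Abca1, which exports cholesterol, was at 38.0, 21.4 and 19.5 CPM in general and 481, 303 and 417 CPM in niche libraries (log2 fold change 3.93 ± 0.39, SE, edgeR adjusted p = 6.76e-06). Lpl, a lipase, was at 24.0, 47.1 and 58.6 CPM and 509, 454 and 560.0 CPM (log2 fold change 3.55 ± 0.46, SE, edgeR adjusted p = 0.000136).

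Transcripts of the mitochondrial genome were higher in niche macrophages. Of 13 tested mitochondrial protein genes, 12 were called higher, with a median log2 fold change of 2.52. Of 34 nuclear genes of the same complexes none was called higher and Cox4i1 lower by edgeR, with a median of 0.13 (-0.18 and -0.24 without niche library B or C, and -0.52 in limma-voom), 1 higher and 3 lower having an unadjusted p under 0.05 and DESeq2 calling 1 higher and 4 lower. Cox4i1 lost its call in 4 of 6 fits that left out a library (general replicates 1 and 3, niche libraries B and C). This 1 call is 2.94% of the nuclear list, near the 2.47% of all tested genes, and 18 of the 34 were at 3 counts or fewer in at least 1 library. The 7 well measured ones had a median of 0.66. The difference between the lists was not tested. mt-Nd5, a complex I subunit, was at 126, 433 and 407 CPM in general and 2394, 1516 and 2025 CPM in niche libraries (log2 fold change 2.62 ± 0.35, SE, edgeR adjusted p = 0.000173). mt-Co1, of complex IV, was at 223, 698 and 673 CPM and 2573, 1972 and 2563 CPM (log2 fold change 2.16 ± 0.34, SE, edgeR adjusted p = 0.000996). General replicate 1 was the lowest library for both, and mitochondrial transcripts made up 0.0846% of its counts, against 0.40% and 0.359% in the other general libraries and 1.35% to 1.80% in niche libraries. Without that replicate 11 of the 13 genes were called higher, with a median of 2.03. Of the fits that left out 1 library, those without general replicate 3 or niche library A called the fewest, 10, and the fit of the 6 libraries alone called 9. In each of the former mt-Co2 was among those lost.

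Both chain genes of the MHC class II molecule I-A were called higher, and of the 17 tested genes of the class II list 3 were called (17.6%, beside 2.47% of all tested genes). H2-Aa, the alpha chain of the I-A molecule, was at 221, 196 and 138 CPM in general and 786, 706 and 815 CPM in niche libraries, and H2-Ab1, the beta chain, at 121, 117 and 178 CPM and 758, 424 and 489.7 CPM. Their log2 fold changes were 2.06 ± 0.29 and 2.01 ± 0.32 (SE; edgeR adjusted p = 0.000255 and 0.0012), and the groups did not overlap. They were the 2 members called higher in that list, whose median was 1.55 (0.83 without niche library A). Cd74, the invariant chain, was at 63.9, 30.0 and 56.8 CPM and 224, 107 and 178 CPM and was not called (edgeR adjusted p = 0.106), and Ifi30, a thiol reductase that helps to unfold antigen, was called lower at 24.6, 24.1 and 53.3 CPM and 0.243, 0.249 and 0.10 CPM (edgeR adjusted p = 0.0433). Leaving out any 1 of the 6 libraries removed the call of Ifi30. B cells and dendritic cells also carry class II, and the summed CPM of their lists was higher in niche libraries, as given below, so their part was not tested. None of 22 class I genes was called by edgeR, 5 having an unadjusted p under 0.05, all higher, with 3 called higher by DESeq2 and none by limma-voom. B2m, the shared light chain of class I, was at 487, 573 and 608 CPM and 480.02, 543 and 595 CPM. Of 16 tested complement genes 1 was called higher, C1qb, and 2 lower, C5ar1 and Itgb2 (18.8% in all). C1qb, a chain of C1q, rose from 13.7, 4.45 and 9.89 CPM to 329, 91.8 and 229.8 CPM (edgeR adjusted p = 0.0067). Limma-voom did not call C1qb (limma-voom adjusted p = 0.134). C5ar1, the receptor for C5a, fell from 851, 815 and 724 CPM to 202, 346 and 259 CPM (edgeR adjusted p = 0.00169).

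**Figure D3:**
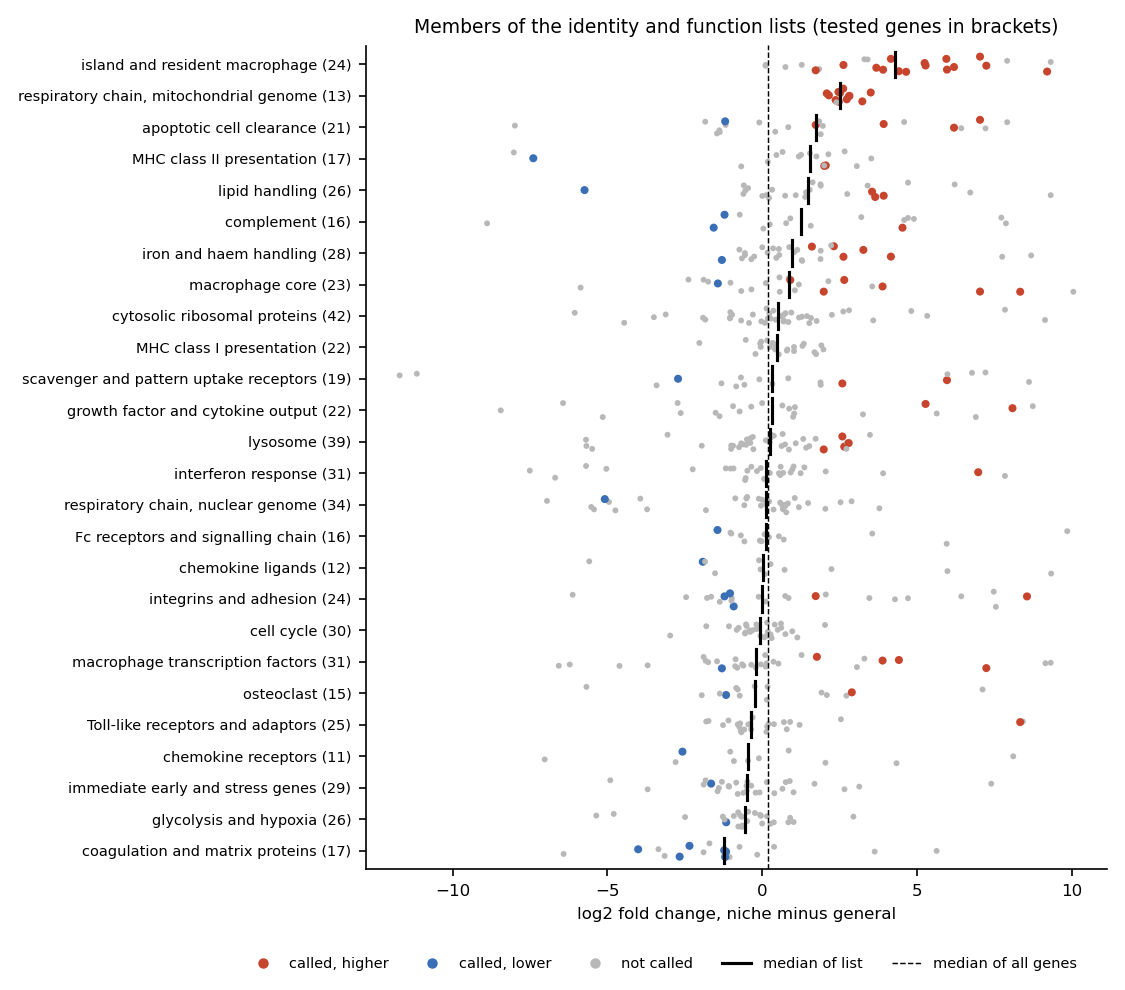
Log2 fold change of each tested member of the identity and function lists, with called genes in colour, the median of each list as a bar and the median of all tested genes, 0.19, as a dashed line. The island and resident list (median 4.29) and the mitochondrial genome list (median 2.52) lie to the right, and coagulation and matrix proteins (median -1.23) to the left.

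The lower side was led by genes of inflammatory monocytes. Fn1, the matrix protein fibronectin, was at 741, 663 and 682 CPM in general and 52.4, 17.4 and 60.1 CPM in niche libraries, which is -4.01 ± 0.43 as a log2 fold change (SE; edgeR adjusted p = 1.44e-05). Ccr2, the receptor by which monocytes leave the marrow, was at 1528, 1715 and 1474 CPM and 341, 214 and 237 CPM (log2 fold change -2.57 ± 0.32, SE, edgeR adjusted p = 7.76e-05). Ly6c2, which encodes the Ly6C antigen of inflammatory monocytes, was at 1697, 1753 and 1807 CPM and 525, 699 and 303 CPM (log2 fold change -1.78 ± 0.26, SE, edgeR adjusted p = 0.000381). General libraries lay within a narrow range for all 3 genes, which are among those chosen without overlap. F13a1, a clotting factor chain made by monocytes, fell by 2.35 on the log2 scale and Lyz2 by 1.43 (edgeR adjusted p = 0.000136 and 3.74e-05). In all, 10 of 22 tested genes of the monocyte list were called lower, with a median of -1.61. Without general replicate 1 or 2 the number lower was 6, and limma-voom called 3, which did not include Fn1, Ccr2 or Lyz2 (limma-voom adjusted p = 0.306, 0.0987 and 0.415). Thbs1, a matrix protein, lost its call in 4 of 6 fits that left out a library, each general one and niche library C. Coagulation and matrix proteins overlap with this list, and 6 of their 17 tested members were called lower (Fn1, F13a1, Thbs1, Tgfbi, Mmp8 and Mmp9), with a median of -1.23. Limma-voom called F13a1 and Thbs1 of these, and DESeq2 called 9 members lower and 1 higher. In GRCm38, Fn1 lies on the minus strand at chr1:71585520-71653200 (GENCODE M21).

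Some neutrophil genes were also lower in niche libraries, without being absent from them, and others were not called. Camp, the antimicrobial peptide cathelicidin, was at 1219, 1239.8 and 1214 CPM in general and 433, 303 and 374 CPM in niche libraries (log2 fold change -1.73 ± 0.22, SE, edgeR adjusted p = 9.04e-05). S100a8, a subunit of calprotectin, was at 2802, 3716 and 3412 CPM and 1798, 1328 and 1157 CPM (log2 fold change -1.21 ± 0.23, SE, edgeR adjusted p = 0.00475), and Ly6g, the antigen used to sort neutrophils, at 493, 551 and 504 CPM and 209, 213 and 177 CPM (log2 fold change -1.37 ± 0.29, SE, edgeR adjusted p = 0.0131). Of 23 tested genes of the neutrophil list 7 were called lower, with a median of -0.93. The primary granule proteins did not share that order, Mpo, which encodes myeloperoxidase, being at 599, 436 and 447 CPM and 528, 815 and 916 CPM and the elastase gene Elane at 149, 115 and 173 CPM and 172, 281 and 152 CPM. Their log2 fold changes of 0.61 and 0.47 were not called (edgeR adjusted p = 0.258 and 0.472), and 14.95% of the exon bases of Mpo are shared with another gene model. Without general replicate 2 the number was 4, and limma-voom called 2. Summed over the list, general libraries held 26054 to 27622 CPM and niche libraries 13353 to 16431 CPM. The monocyte list summed to 33544 to 37722 CPM in general and 12489 to 15967 CPM in niche libraries. In bulk RNA, fewer cells of a type and less of its RNA per cell cannot be told apart.

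Among protein-coding genes per kilobase of exon, a scale on which genes can be compared, Lyz2 was first in both groups, at a mean of 15074 CPM per kb in general and 5591 in niche libraries. General libraries continued with Ngp, Actb, S100a8 and Chil3, at 7177 to 4582 CPM per kb. In niche libraries the next were mt-Co2, Ngp, Actb and mt-Nd3, at 4988 to 3430 CPM per kb. Ngp, a neutrophil granule protein, was thus the third gene in niche libraries at 3773 CPM per kb, while its call as lower was lost in every fit that left out a library.

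Promoters of called genes were read for 3 short motifs, chosen for the myeloid and lysosomal genes above. The motif GAGGAAGT, a form of the site of PU.1, the Ets factor of myeloid cells, was searched on both strands in the 250 bases before each RefSeq gene start in the table for GRCm38.p6. It was found in 8 of the 64 well measured genes called lower that had an entry (12.5%) and in 5 of 95 called higher (5.26%). Among genes with an entry, it was found in 4.09% of well measured genes and in 3.41% of all tested genes. Ly6c2, Ly6g, S100a8 and Mmp8 were among the 8. The promoters of Ly6c2 and Ly6g, which lie near each other on chr15, are much alike around the motif, so these genes are not separate cases. TCACGTG, the core of the CLEAR element of lysosomal genes, stood in 8 of 95 genes called higher (8.42%) and 2 of 64 called lower (3.13%). Its share was 7.71% of well measured genes and 6.15% of all tested genes. TGCTGAC, a short form of the Maf recognition element, stood in 4 of 95 (4.21%), 4 of 64 (6.25%), 3.69% and 3.62%. These shares carry no test, and a match describes the letters of the promoter, not binding. The promoters of 3 myeloid genes called lower, where both strands of the PU.1 motif are seen, and of the lysosomal gene Ctsd, called higher, are printed 5′ to 3′ along the gene, with the motif in capitals (GAGGAAGT or its reverse complement, and in Ctsd TCACGTG or its reverse complement, which overlap in the second stretch).
Ly6c2 (minus strand, chr15:75111972-75112221, the upstream of its 2 RefSeq starts): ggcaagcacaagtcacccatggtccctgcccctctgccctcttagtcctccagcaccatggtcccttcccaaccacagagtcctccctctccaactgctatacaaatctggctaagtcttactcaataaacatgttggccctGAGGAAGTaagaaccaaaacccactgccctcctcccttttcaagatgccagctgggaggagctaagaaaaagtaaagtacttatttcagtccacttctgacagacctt
S100a8 (plus strand, chr3:90668821-90669070): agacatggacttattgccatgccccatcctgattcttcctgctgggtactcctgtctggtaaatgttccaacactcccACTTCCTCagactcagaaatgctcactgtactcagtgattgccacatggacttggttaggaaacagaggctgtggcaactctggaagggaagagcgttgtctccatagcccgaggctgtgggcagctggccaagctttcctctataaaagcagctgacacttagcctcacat
Mmp8 (plus strand, chr9:7558179-7558428): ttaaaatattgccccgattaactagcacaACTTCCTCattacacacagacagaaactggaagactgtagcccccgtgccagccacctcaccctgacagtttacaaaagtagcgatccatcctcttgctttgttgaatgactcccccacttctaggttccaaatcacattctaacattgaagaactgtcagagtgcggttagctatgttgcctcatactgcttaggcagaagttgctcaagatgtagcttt
Ctsd (minus strand, chr7:142387828-142388077): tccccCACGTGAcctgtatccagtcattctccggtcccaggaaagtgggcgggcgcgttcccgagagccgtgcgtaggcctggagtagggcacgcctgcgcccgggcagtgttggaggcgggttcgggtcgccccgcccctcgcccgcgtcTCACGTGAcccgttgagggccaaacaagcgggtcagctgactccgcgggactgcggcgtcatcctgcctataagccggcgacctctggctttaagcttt

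Some genes passed from background to a clear level. At 3 counts or fewer in all general libraries and at 10 CPM or more in all niche libraries were 9 called genes. Cd4, a co-receptor of T cells that some macrophages also carry, had 1, 0 and 2 counts in general and 1081, 1988 and 316 counts in niche libraries, and Asb2, a subunit of a ubiquitin ligase, 1, 3 and 3 and 778, 1666 and 1050 counts. Dgki, a diacylglycerol kinase, had 3, 2 and 3 and 750, 1738 and 452 counts, and Snn 1, 1 and 0 and 779, 1021 and 1143 counts. In the other direction stood H4c9, with 561, 425 and 997 counts in general and 2, 2 and 1 in niche libraries, and Ace, which encodes angiotensin-converting enzyme, with 237, 721 and 241 and 1, 1 and 2 counts. H4c9 is 1 of many near-identical histone genes, and its counts are uncertain. The adjusted p-values by edgeR were 0.013, 0.018, 0.0439 and 0.0478 for the higher and 0.0137 and 0.0439 for the lower genes. Calls at this level depended on single libraries, Snn and Ace losing theirs in all 6 fits that left one out, Dgki in 5, H4c9 without general replicate 3, and Cd4 and Asb2 in each of the 3 that left out a general library.

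Adhesion, signalling and growth factor genes split by gene. Itgad, the integrin chain CD11d of resident macrophages, was under 1 CPM in each general library and at 202, 48.4 and 244 CPM in niche libraries (log2 fold change 8.56 ± 0.87, SE, edgeR adjusted p = 8.48e-06), with 19.7% of its exon bases in other gene models. Limma-voom did not call Itgad (limma-voom adjusted p = 0.0521). Itgav, an integrin chain that binds dying cells, rose from 102, 107 and 93.3 CPM to 325, 264 and 415 CPM (edgeR adjusted p = 0.00343). Cd44, a homing receptor, and Itgb2, the partner chain of CD11b, fell by 1.04 and 1.22 on the log2 scale (edgeR adjusted p = 0.0144 and 0.0131). Over 24 tested integrin and adhesion genes that left 2 higher and 3 lower (20.8%, beside 2.47% of all tested genes). Their median was 0.00, and its sign differed between scalings. Without general replicate 1 or 2 the number lower was 1. The calls of Cd44 and Itgb2 were each lost in 2 of 6 fits that left out a library, Cd44 without general replicate 2 or niche library C, and Itgb2 without general replicate 1 or 2. Kitl, the growth factor for KIT-bearing progenitors, rose from 0.206, 0.415 and 0.250 CPM to 102, 92.1 and 48.8 CPM (edgeR adjusted p = 0.00364). Kitl and Igf1 were the calls among 22 growth factor and cytokine genes (9.09%). Ccr2 was the only call among 11 chemokine receptors (9.09%) apart from Ccr3, which is kept with the sorting antigens above. Among 12 chemokine ligands the only call was Ccl6 (8.33%), a chemokine of myeloid cells. Ccl6 fell from 185, 453 and 295 CPM to 54.6, 108 and 84.9 CPM (edgeR adjusted p = 0.00984). With 1 call each, the chemokine lists give no result beyond the gene named. Ccl6 was not called without general replicate 2. The large scaffold protein gene Ahnak fell from 1038, 899.9 and 707 CPM to 185, 112 and 137 CPM (edgeR adjusted p = 3.49e-05), Cmtm6, a partner of PD-L1 at the cell surface, from 452, 694 and 624 CPM to 108, 189 and 156 CPM (edgeR adjusted p = 0.000255), and Ifitm6 from 992, 1194 and 1059 CPM to 321, 382 and 240.1 CPM (edgeR adjusted p = 0.000198).

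Other functions had 0 or 1 call each, which for lists of 25 to 42 genes is near the 2.47% called over all tested genes and is no result about them. None of 30 cell cycle genes was called by edgeR, with 2 at an unadjusted p under 0.05, both lower, and DESeq2 called 1 lower and limma-voom none. Mki67, a marker of dividing cells, was at 821, 698 and 702 CPM in general and 321, 474 and 516 CPM in niche libraries and was not called (edgeR adjusted p = 0.172). Among 42 ribosomal protein genes edgeR called none, with 4 higher and 1 lower at an unadjusted p under 0.05, while DESeq2 called 2 higher and limma-voom none. Of 31 interferon response genes 1 was called, Ifi44, at 0.824, 0.237 and 0.350 CPM and 0.568, 80.2 and 98.9 CPM, with niche library A as low as the general ones (edgeR adjusted p = 0.0287). In that list 3 higher and 5 lower genes had an unadjusted p under 0.05 in edgeR, and DESeq2 called 1 higher and 5 lower and limma-voom none. Fosl2 was the only call among 29 immediate early and stress genes, lower at 619, 567 and 582 CPM and 135, 315 and 114 CPM (edgeR adjusted p = 0.0187), and Gpi1, a glycolytic enzyme, the only one among 26 genes of glycolysis and hypoxia, lower at 382, 417 and 449.6 CPM and 183, 211 and 165 CPM (edgeR adjusted p = 0.0107). Fosl2 lost its call in 5 of 6 fits that left out a library and Ifi44 in 4, the general libraries among them each time, and Gpi1 lost it without general replicate 3. Cd14, the lipopolysaccharide co-receptor, was the only call among 25 Toll-like receptor genes, at 0.0687, 0.0593 and 0.200 CPM in general and 45.2, 53.4 and 14.9 CPM in niche libraries (edgeR adjusted p = 0.0426), and lost its call in 5 of 6 such fits, niche library C being the exception.

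Marker lists of other cells differed between the sorts in both directions, although macrophages carry some of their members. The erythroid list summed to 236 to 452 CPM in general and 1405 to 2285 CPM in niche libraries. The B and plasma cell list summed to 491 to 658 CPM and 2140 to 3187 CPM. The groups did not overlap in either sum, and the exact two-sided permutation p was 0.1 for each, the smallest possible (0.12 after Benjamini-Hochberg adjustment over 18 measures). The same p and adjusted p were found for the stromal and endothelial list (129 to 225 CPM against 797 to 888 CPM), the stem and progenitor list (268 to 379 CPM against 833 to 1081 CPM), the dendritic list (295 to 324 CPM against 507 to 756 CPM) and the T and NK cell list (166 to 221 CPM against 338 to 722 CPM). Eosinophil, basophil and mast cell transcripts (466 to 669 CPM against 577 to 783 CPM) and megakaryocyte transcripts (1845 to 2183 CPM against 1408 to 1894 CPM) overlapped (exact permutation p = 0.4 and 0.3). Of 17 tested eosinophil, basophil and mast cell genes 11 had a positive log2 fold change, with a median of 0.60 (-0.27 without niche library B), and edgeR and limma-voom called none, 2 being higher and 4 lower at an unadjusted p under 0.05 in edgeR, while DESeq2 called 1 higher and 4 lower. The log2 fold changes of the granule proteins Epx and Prg2, 0.60 and -3.79, were not called (edgeR adjusted p = 0.87 and 0.133). Epx was at 82.8, 24.5 and 27.3 CPM in general and 55.8, 66.6 and 81.7 CPM in niche libraries, and Prg2 at 97.8, 68.5 and 86.3 CPM and 0.162, 17.7 and 0.301 CPM. Without members that the identity and function lists of macrophages also hold, the stromal and endothelial groups overlapped, at 98.8 to 167 CPM and 105 to 267 CPM. The 5 members left out were Lpl, Kitl, Cxcl12, Pecam1 and Stab2, each with a positive log2 fold change, and they include the 2 called members. Lpl alone made up 509, 454 and 560.0 CPM of the niche sums. Of the 14 members left 4 were tested, so the overlap is in part fixed by the removal and says little about stromal transcripts. Without shared members the erythroid sums were 222 to 420.3 CPM and 1255 to 2128 CPM, without overlap. Nor did the B and plasma cell sums overlap, at 447 to 601 CPM and 2014 to 3094 CPM, or the dendritic sums, at 220 to 270 CPM and 336 to 555 CPM.

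**Figure D4:**
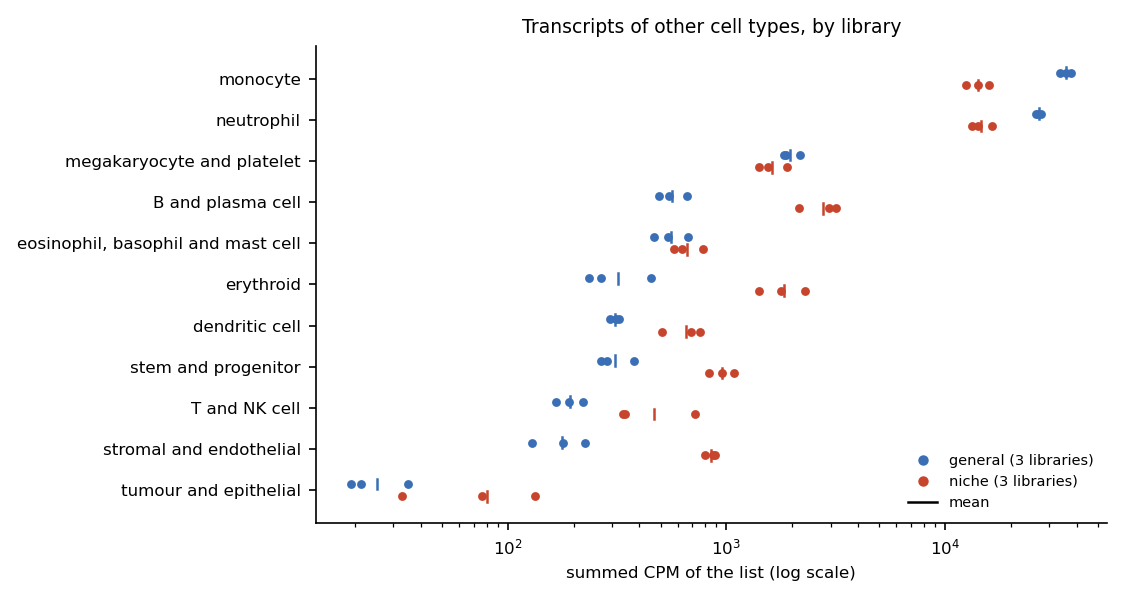
Summed CPM (log axis) of 11 marker lists of other cell types, with members that macrophages also carry, in each of 3 general and 3 niche libraries, with the group mean as a bar. Monocyte and neutrophil sums are lower in every niche library than in any general one, and the erythroid, B and plasma cell, stromal, stem, dendritic and T and NK cell sums are higher.

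Within the erythroid list, 5 of 27 tested genes were called higher, with a median log2 fold change of 3.88. Of the 27, 20 were at 3 counts or fewer in at least 1 library, and with at least 10 counts in every library 4 were tested, with a median of 1.85. Limma-voom called 3 of the 27 and DESeq2 12. Hbb-bs, an adult beta-globin gene, was at 53.9, 28.2 and 11.1 CPM in general and 454, 627 and 366 CPM in niche libraries (log2 fold change 3.96 ± 0.55, SE, edgeR adjusted p = 0.000255). Slc4a1, the anion exchanger band 3 of red cells, was at 0.343, 0.475 and 0.599 CPM and 331, 100.1 and 211 CPM (log2 fold change 8.79 ± 0.85, SE, edgeR adjusted p = 4.9e-06). Car2, a carbonic anhydrase of red cells that osteoclasts also make, rose from 31.9, 14.7 and 15.8 CPM to 158, 157 and 150.2 CPM (edgeR adjusted p = 0.00145). The 2 alpha-globin genes, nearly identical copies whose reads may have been divided between them arbitrarily, read differently: Hba-a2 was at 0.481, 0.356 and 0.300 CPM and 158, 128 and 68.2 CPM, and Hba-a1 at 16.8, 0 and 0.150 CPM and 0.812, 0.249 and 0.251 CPM. Klf1, the master factor of erythroid genes, passed 3 counts in 1 of the 3 niche libraries and in none of the general ones. Each fit without 1 of the general libraries called 3 erythroid genes, and Hba-a2 was not among them. Haemoglobin transcripts made up 0.0621% ± 0.0175 of counts in niche and 0.00443% ± 0.00447 in general libraries (SD, n = 3 each), and their part in the higher iron and haem genes was not tested.

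B cell transcripts were led by Igkc, the kappa light chain, at 16.2, 2.91 and 8.99 CPM in general and 530.1, 125 and 325 CPM in niche libraries (log2 fold change 5.12 ± 0.87, SE, edgeR adjusted p = 0.00198). Jchain, which joins immunoglobulin units, was at 26.6, 7.59 and 7.49 CPM and 221, 156 and 323 CPM (log2 fold change 4.07 ± 0.55, SE, edgeR adjusted p = 0.000198), and Ighm, the heavy chain of IgM, at 185, 111 and 98.0 CPM and 544, 217 and 770.5 CPM (edgeR adjusted p = 0.0163). With Pax5 and Bank1, which act in B cell identity and signalling, 5 of 22 tested members were called higher, with a median of 4.02, and 2 to 5 were called in the fits that left out a library, the fewest without general replicate 3. Limma-voom called none of these 5 genes (adjusted p of 0.415 for Igkc, 0.394 for Jchain, 0.352 for Ighm, 0.0647 for Pax5 and 0.0593 for Bank1) and 2 other members, DESeq2 called 12 of the 22, and Igkc was not called with robust dispersion. With at least 10 counts in every library 7 members were tested, with a median of 1.78. Ighm lost its call without general replicate 2 or 3 or niche library C, Pax5 without any general library or niche library C, and Bank1 without general replicate 3. Myb, a factor of progenitors, rose from 138, 112 and 151 CPM to 309.6, 388 and 355 CPM (edgeR adjusted p = 0.0347) but lost its call in 5 of 6 such fits, niche library A being the exception. T and NK cell genes gave no call in edgeR, with 2 of 18 at an unadjusted p under 0.05, both higher, and DESeq2 called 2 higher and limma-voom none.

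The 6 libraries of metastatic marrow repeat the comparison in other mice. Of the 150 well measured genes called higher in normal marrow, 143 were also higher there, 65 were called, and the median log2 fold change was 1.72 beside 2.62 in normal marrow. Of the 87 called lower, 84 were lower, 18 were called and the medians were -0.68 and -1.44. In that comparison 0.831% of all tested genes were called in either direction. These genes were chosen for passing in normal marrow, so that larger values there are in part fixed by the choice. Itgad and Fn1 had nearly the same log2 fold change in both, 8.56 and 8.58 for Itgad and -4.01 and -4.00 for Fn1, while Paqr9 had 9.21 in normal and 4.83 in metastatic marrow and Vcam1 5.09 and 3.82. The difference between marrow states passed for no gene in edgeR (smallest adjusted p = 0.452), with 1016 genes (7.89%) at an unadjusted p under 0.05, among them 53 of the 150 and 32 of the 87.

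**Figure D5:**
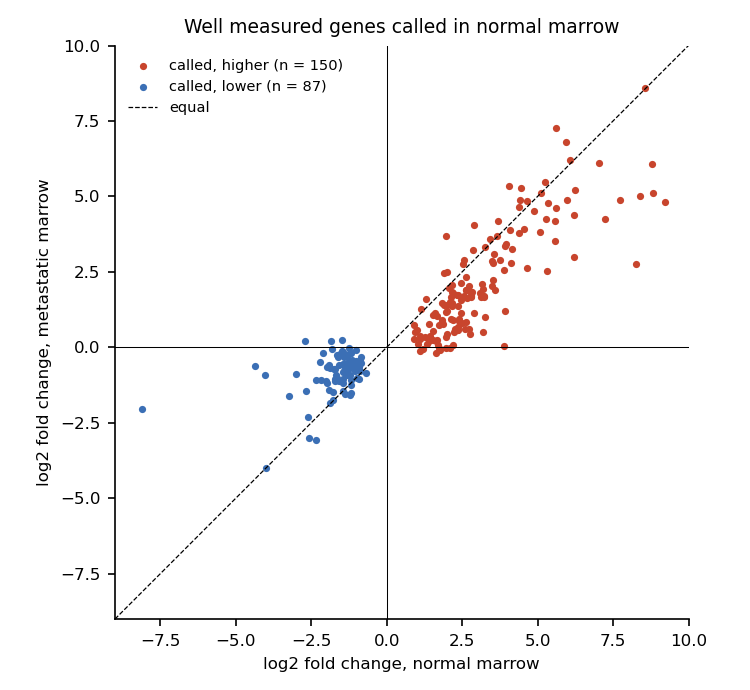
Log2 fold change of niche minus general macrophages in normal marrow (x axis) against the same in metastatic marrow (y axis) for the 150 well measured genes called higher and the 87 called lower in normal marrow, with the line of equal values dashed. Of these, 143 and 84 have the same sign in both, and most lie nearer to 0 in metastatic marrow.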

How the data were processed

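RNA was sequenced from 12 libraries of sorted marrow macrophages, of which 6 are compared here. Values are expected counts, which the authors deposited unnormalized as 1 table of 18467 genes, and 73.9% of them were whole (tolerance 0). Per the submitters' processing notes, STAR 2.7.3a, Partek, DESeq2 1.40.2, R 4.3.1 and mm10 were used. The counting program, annotation and strandedness are not given in the sources used here, so genes and overlapping or antisense partners may share reads. Per the labels' protocols, ribosomal RNA was depleted with a commercial kit.

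Expected counts were rounded to whole numbers, filtered with filterByExpr (12882 genes kept), scaled by TMM and modelled over the 4 groups of 12 libraries, which share 1 estimate of the spread (common biological coefficient of variation 1.30). The tool was edgeR 4.0.16 (R 4.3.3). Its quasi-likelihood p-values carry Benjamini-Hochberg adjustment across every gene tested. SE comes from the F statistic. Symbols were matched to GENCODE M21 on GRCm38 (18026 matched), and 15 of 158 genes with an entry among those chosen for naming had over 10% of exon bases in another gene. The procedure was tested on simulated data.

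Niche columns from normal marrow are numbered otherwise than the sample titles, so their libraries have letters. The comparison and the gene lists were chosen with earlier results of these data known. Genes named were the antigens, the 10 well measured genes (mean of at least 50 CPM) of smallest p without overlap in each direction, the 4 most abundant called genes in each direction at 3 counts or fewer in 1 group and at least 10 CPM in the other, and the most abundant and best-ranked list members. Genes outside that rule were chosen after their values were seen (Sirpa, Mertk, Siglec1, Spic, Trf, Slc48a1, Tfrc, Scarb2, Clec7a, Itgav, Acp2, Scd1, C1qb, Ifi30, Tgfbi, Igkc, Jchain, Hba-a2, Hba-a1, Ly6g, Cd5l, Timd4, Maea, Csf1r, Ftl1, Fth1, Pax5, Bank1, Actb, mt-Nd3, Prg2, Cd74, Mpo, Elane, Cxcl12, Pecam1, Stab2, and the markers at background). Promoters came from a RefSeq table (GRCm38.p6), which held 19 of 29 genes named by the first 3 parts of that rule. Alternatives were RLE or library-size scaling, 2 count filters, DESeq2 1.42.0, limma-voom (limma 3.58.1), robust dispersion, the 6 libraries alone, removal of gene classes, thinning, and leaving out each library. Sums of other cells' lists without members shared with macrophage lists were chosen after seeing the data. Totals limit precision to the counts given, and the 3-count background limit reflects counting alone, because no molecular identifiers mark independent reads. Some genes are not reported here.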

Additional observations from a re-analysis of the deposited data

How the results depend on the processing

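The number of calls differed between tests and with the libraries included. Genes called higher were 193 in edgeR, 887 with DESeq2 (1044 of 12882 genes without an adjusted p) and 112 with the 6 libraries alone, and genes called lower were 125, 930, 59, and 36 with limma-voom. Of the 193 and 125, DESeq2 called 189 and 125 and the 6 libraries alone 110 and 50. Among well measured genes the higher count went from 150 to 307 with DESeq2, 84 with limma-voom and 91 with the 6 libraries alone. The lower count went from 87 to 196, 34 and 57, and to 174 with at least 10 counts in every library, where 4867 genes were tested. That filter gave 44.9% of calls as higher, against 60.7%, and with fewer members tested the median of the lipid list was 0.90. Leaving out 1 library gave 113 to 198 genes higher and 60 to 206 lower, and 93 to 149 and 42 to 98 among well measured genes. The cause was not tested. RLE and library-size scaling, no filter, robust dispersion, thinning and removal of haemoglobin, immunoglobulin, mitochondrial and small RNA genes kept each of these 4 counts within 1.5 times. RLE and library-size scaling moved the median log2 fold change of all genes by -0.01 and 0.02, and limma-voom by -0.39.

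Of 83 called genes named in the text, 34 kept their call in every alternative that tested them and 48 in all 6 fits that left out a library. Limma-voom lost 35 of these calls and the 6 libraries alone 16. Of 18 genes named with values and not called, 6 were called in at least 1 alternative. Itgam, Timd4, Prg2, Ftl1, Cd74 and Mki67 were called with DESeq2 (DESeq2 adjusted p = 0.00792, 1.03e-06, 0.00503, 0.0251, 0.0144 and 0.0247). Timd4 was also called in limma-voom and without niche library B, and Prg2 without niche library B. Itgam was also called with 10 counts in every library and without niche library C. Also not called, Itga4 turned to -0.0703 with 10 counts in every library and -0.0122 in limma-voom, and ran from -0.12 (without niche library A) to 0.22 (without niche library B). Maea turned to -1.37 in limma-voom and ran from -0.75 (without niche library C) to 0.69 (without niche library A). B2m was at -0.22 with 10 counts in every library. In the fits that left out a library B2m ran from -0.13 (without general replicate 1) to 0.033 (without niche library A). Hba-a1 ran from -4.47 (without niche library A) to 2.40 (without general replicate 1). Of 604 list medians under alternatives, 93 moved by more than the SD between niche libraries.

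No paired analysis was possible because the titles number general replicates 1 to 3 and niche replicates 4 to 6 in normal marrow, while the niche columns of the table carry 1 to 3, so no niche column is tied to a numbered sample. Below 50 CPM the spread between replicates limits what can be called, and with 3 libraries against 3 a single measure cannot reach an exact p under 0.1.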
